A study of Homo sapiens with 32 samples.

Results

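The 0.1 µM PFOS cultures were compared between 12 and 6 weeks of exposure, which answers how the transcriptome of granulosa cells kept under this concentration moved as the exposure went on. The comparison holds 8 of the 32 libraries of the series, taken by their labels: all libraries labelled 0.1 µM PFOS, 4 after 12 weeks and 4 after 6 weeks. PFOS (perfluorooctane sulfonate) is a persistent surfactant of the perfluoroalkyl family. HGrC1 is an immortalized line derived from human granulosa cells, so all values describe 1 cell line and not the ovary. The study thawed 4 separately frozen vials, let the cells settle for 2 weeks, divided each vial into 4 flasks that received the vehicle alone or PFOS at 1, 0.1 or 0.01 µM, passaged the flasks 2 times a week with a new dose at each passage, and took RNA at 6 and at 12 weeks. The vehicle was 0.05% DMSO, and the medium held 10% serum and a steroid at 100 nM, which the sample labels give as estradiol and the study's methods as testosterone. The 12-week libraries therefore come from the flasks that had already given the 6-week libraries, and the 2 times differ in passage number, harvest and exposure together, which cannot be told apart at 0.1 µM. The change of the untreated flasks over the same 6 weeks is given for the main results for that reason.

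Granulosa cells line the ovarian follicle, convert androgens to estradiol and, after ovulation, make progesterone from cholesterol. Their state in culture is followed through steroid enzymes, through the transcription factors that keep granulosa identity, and through the matrix and cytokines that they release around ovulation, when the follicle wall is remodelled in a process akin to inflammation.

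Each library held between 17907056 and 18207214 counts, and 12988 genes passed edgeR's filter on low counts. Levels are given as CPM (counts scaled to a common library size, with TMM factors), listed for vials 1 to 4 in that order. Fold changes are log2 of 12 over 6 weeks with their standard error (SE), and p-values are from edgeR's quasi-likelihood test with Benjamini-Hochberg adjustment. The 12-week libraries had 14745 to 14813 genes with a count and the 6-week libraries 14910 to 14962 (exact permutation test, two-sided, p = 0.0286, the smallest that 4 against 4 can give). Of the 9 granulosa markers measured, 4 had a median above 1 TPM (a level per transcript length, scaled to the library) at each time. GATA4, a transcription factor of the gonadal somatic cells, had a median of 77.0 TPM at 6 weeks and 71.2 TPM at 12 weeks, and WT1 had 35.1 and 41.6 TPM. FOXL2, the factor that defines granulosa cells, stood at only 0.640 and 0.505 TPM, and CYP19A1, the aromatase gene, had no count in any of the 8 libraries. INHA and STAR, the other markers above 1 TPM, had medians of 1.52 and 2.56 TPM at 6 weeks and 1.8 and 1.06 TPM at 12 weeks. The label granulosa cell comes from the origin of the line, and these levels do not settle it. The transcripts CDK4, CCND1 and TERT, whose genes are commonly introduced to immortalize cells, had medians of 8490, 2704 and 111 TPM at 6 weeks.

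At 12 weeks, 2564 genes were higher (19.7% of those tested) and 2671 were lower (20.6%) at an adjusted p at or under 0.05. Counting, as the study does, only genes that also changed at least 2-fold (DEGs), 54 rose (0.416%) and 444 fell (3.42%), 3.83% of the genes tested in all. Small changes made up most of the difference: of the 40.3% of genes with an adjusted p at or under 0.05, 4737 (90.5%) changed less than 2-fold, and their median absolute log2 fold change was 0.28. The median over all genes tested was 0.01. The libraries of the 2 times did not overlap in 2534 genes that were higher (19.5%) and 2617 that were lower (20.1%). The untreated flasks had 82 DEGs that rose (0.631%) and 349 that fell (2.69%) over the same weeks, with 17.3% of genes higher and 19.3% lower at any fold. DEGs numbered 62 higher (0.477%) and 391 lower (3.01%) at 0.01 µM, where 21.4% and 21.3% of genes moved at any fold, and 46 higher (0.354%) and 355 lower (2.73%) at 1 µM, where 14.2% and 15.9% did. In the control, 411 of the 498 DEGs at 0.1 µM had an adjusted p at or under 0.05 with the same sign.

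**Figure D1:**
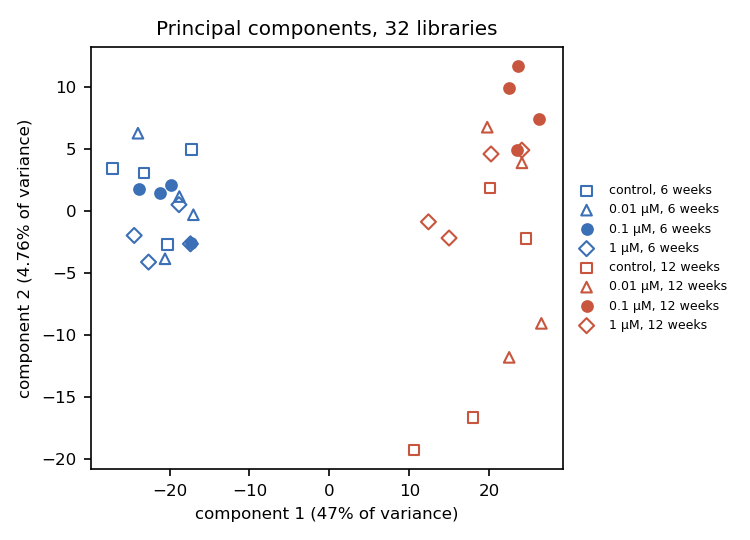
Principal components of log2 CPM in the 32 libraries of the series, the first component (47% of the variance) on the x axis and the second (4.76%) on the y axis, with colour for the time, symbol for the dose and filled circles for 0.1 µM. The 4 filled 6-week circles lie to the left and the 4 filled 12-week circles to the right, with the other doses of the same time.

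The 10 largest falls covered enzymes, secreted and adhesion proteins, receptors and transcription factors. SLPI, a secreted inhibitor of leukocyte proteases (chr20:45252239-45254564, GRCh38), measured 194, 143, 164 and 123 CPM at 6 weeks and 16.1, 11.8, 12.6 and 4.75 CPM at 12 weeks, a log2 fold change of -3.78 ± 0.46 (SE, n = 4 against 4, edgeR adjusted p = 5.81e-07). Every 12-week library was below every 6-week library, as the choice of these 10 genes required, and the control flasks fell by 1.96 on the log2 scale. ALDH1A1, which makes retinoic acid (chr9:72900671-72953053), measured 9.81, 5.42, 6.2 and 8.43 CPM at 6 weeks and 0.220, 0.222, 0.272 and 0.0552 CPM at 12 weeks, a log2 fold change of -5.23 ± 0.34 (edgeR adjusted p = 2.94e-13), and fell by 3.93 in the control. SULT1E1, the sulfotransferase that inactivates estrogens, was close to its detection limit at 12 weeks: 15, 13, 21 and 21 counts became 0, 0, 1 and 0. The ratio of the summed counts, 6 over 12 weeks, was 70.5 with an exact counting interval of 12.2 to 2823, which covers counting error only. In the control its log2 fold change was -4.91.

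The other genes among the 10 largest falls were ACKR3 (a scavenging chemokine receptor), COL11A1 (a fibrillar collagen), ISL1 (a LIM homeobox factor), PDGFRA (a receptor for platelet-derived growth factors), KCTD8, DACH1 (a transcriptional cofactor) and CEACAM1 (an adhesion molecule). ISL1 went from 6.63, 4.64, 4.86 and 5.81 CPM to 0.275, 0.167, 0.599 and 0.110 CPM. DACH1 went from 3.12, 2.87, 2.40 and 3.69 CPM to 0.0551, 0.278, 0.381 and 0.0552 CPM. The libraries of the 2 times were far apart in both genes, with log2 fold changes of -4.21 ± 0.32 and -3.92 ± 0.35 (edgeR adjusted p = 8.16e-12 and 9.41e-11) against -4.31 and -3.17 in the control. PDGFRA had 38, 40, 31 and 16 counts at 6 weeks and 2, 2, 2 and 1 at 12 weeks. Its log2 fold change was -4.07 ± 0.40 at 0.1 µM and -1.87 in the control, and the test of that difference gave an adjusted p of 0.0896. ACKR3 and COL11A1 had 1 and 2 counts left over all 12-week libraries, which puts the ratio of 6 over 12 weeks at 41.3 (interval 7.01 to 1670) and 27.2 (interval 7.17 to 230).

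Fewer genes rose at least 2-fold, and 9 of the 10 largest rises began under 1 CPM in each library. DCAF12L2, a WD-repeat gene on the X chromosome, had 0.438, 0.166, 0.615 and 0.726 CPM at 6 weeks and 3.52, 2.94, 2.94 and 4.53 CPM at 12 weeks, a log2 fold change of 2.83 ± 0.34 (edgeR adjusted p = 6.98e-08). ITLN1, the secreted lectin omentin, rose from 1.37, 0.663, 0.447 and 0.670 CPM to 5.45, 4.39, 5.61 and 3.7 CPM. Both genes were higher in all 4 vials, which their choice required, and both also rose in the control, by 2.88 and 4.64 on the log2 scale. HS3ST5, a heparan sulfate sulfotransferase, DOC2B and CABP7, which bind calcium, GUCY1A1, a subunit of the nitric oxide receptor, RPRM, a p53-induced brake on the cell cycle, ADGRL3, an adhesion receptor, SLIT1, a guidance ligand, and CPS1, the first enzyme of the urea cycle, completed the 10 largest rises, with log2 fold changes from 2.64 ± 0.37 for HS3ST5 to 1.68 ± 0.39 for CPS1. All 8 were among those that began under 1 CPM, and in the control they rose by 1.24 to 2.86. ADGRL3 missed the threshold without vial 3 (adjusted p = 0.0529).

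**Figure D2:**
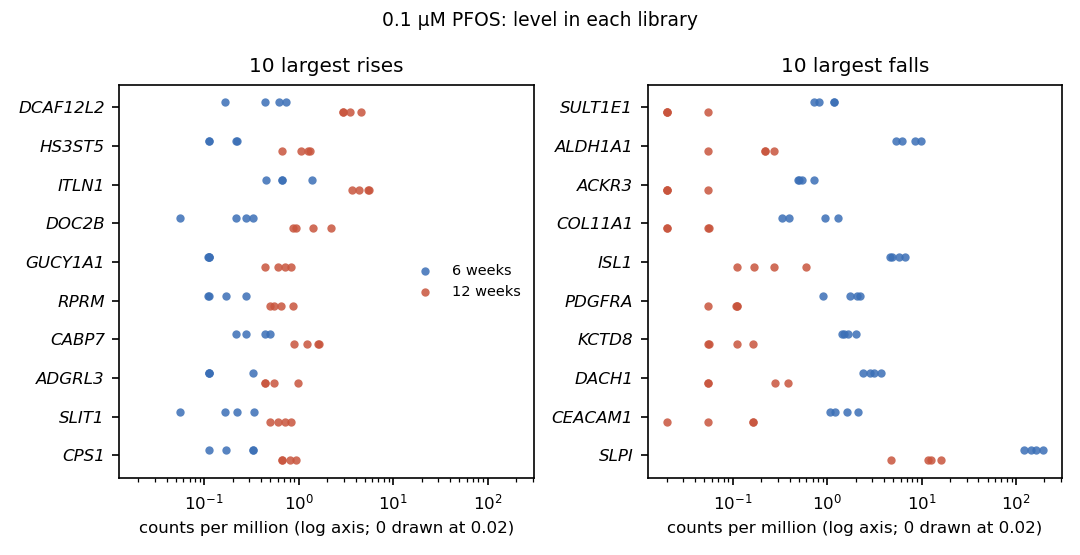
Level in each of the 8 libraries (CPM on a log axis, 0 drawn at the left edge) for the 10 largest rises and the 10 largest falls, blue for 6 weeks and red for 12 weeks. In all 20 genes the 4 libraries of one time lie on one side of the 4 libraries of the other, which the choice of these genes required. SLPI is the only one above 100 CPM.

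Genes were then read in groups, each counted against the shares of all genes tested (19.7% higher, 20.6% lower). Where given, the median log2 fold change of a group stands beside that of the control flasks.

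**Figure D3:**
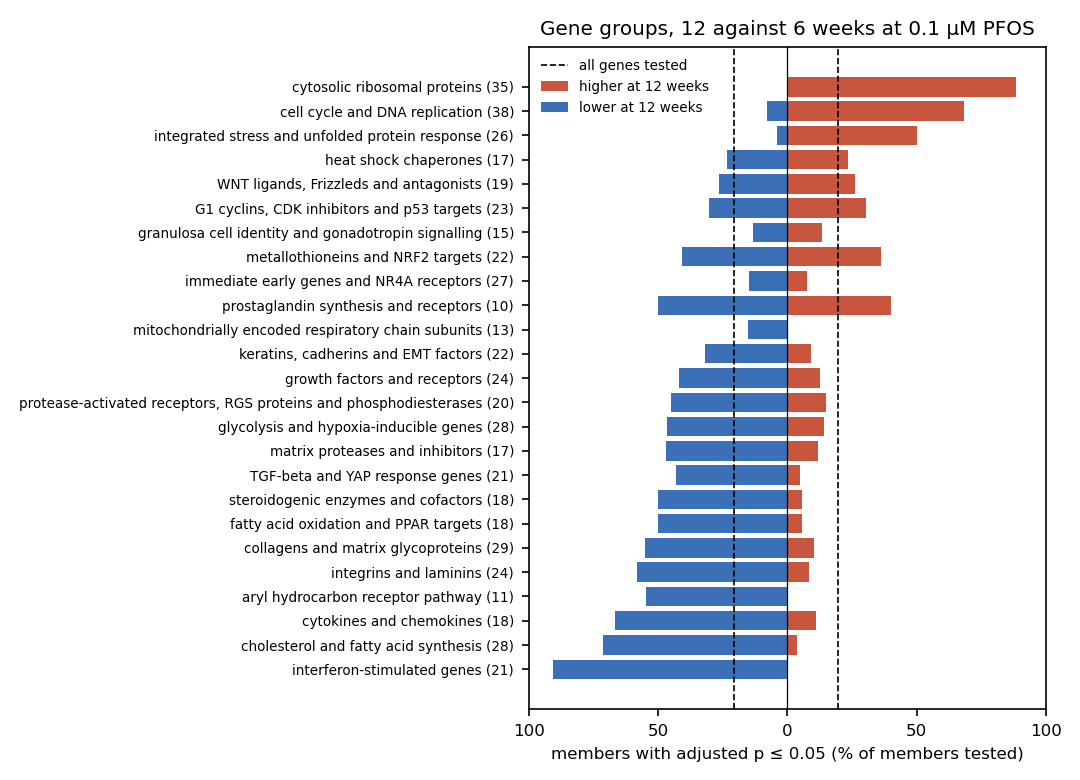
Share of the tested members of each gene group (number tested in parentheses) with an edgeR adjusted p at or under 0.05, higher at 12 weeks to the right in red and lower to the left in blue, with dashed lines at the shares of all genes tested. Interferon-stimulated genes have the highest share of lower members (90.5%) and cytosolic ribosomal proteins of higher members (88.6%).

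More steroidogenic transcripts fell than rose. Of 18 steroidogenic genes tested out of 22, 1 rose and 9 fell, with a median log2 fold change of -0.22 against -0.22 in the control. STAR, the carrier that delivers cholesterol to the inner mitochondrial membrane, measured 3.89, 3.76, 4.08 and 3.29 CPM at 6 weeks and 1.71, 1.55, 2.61 and 0.883 CPM at 12 weeks (log2 fold change -1.15 ± 0.21, edgeR adjusted p = 4.5e-05). CYP11A1, which cuts the cholesterol side chain, fell from 1.92, 0.774, 1.56 and 1.45 CPM to 0.220, 0.278, 0.109 and 0.110 CPM (-2.95 ± 0.46, edgeR adjusted p = 4.91e-06). HSD3B1, which makes progesterone, fell from 36.8, 27.5, 29.5 and 24.6 CPM to 12.8, 11.2, 12.8 and 6.85 CPM (-1.44 ± 0.23, edgeR adjusted p = 1.86e-05). The 2 times did not overlap in any of these 3 genes, and vial 4 had the lowest 12-week level of STAR and HSD3B1. AKR1C3, which reduces androstenedione to testosterone, fell by 1.30, and STS, SRD5A3, POR and HSD17B4 fell by 0.25 to 0.38. In the control, CYP11A1 and HSD3B1 also fell, by 2.03 and 1.23, while STAR moved by -0.29 (adjusted p = 0.287). The difference between the 2 changes in STAR, -0.86 ± 0.30, had an adjusted p of 0.163. FDX1 and TSPO, which serve the same first step, changed by -0.03 and -0.09 and did not pass, and FDXR, the 1 riser, missed the threshold under 16 of 24 alternative settings.

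Granulosa identity genes moved less. Of 15 tested out of 20, 2 rose and 2 fell (median -0.08, control -0.12). NR5A2, the nuclear receptor LRH-1 that drives steroidogenic genes in granulosa cells, fell from 1.81, 1.16, 0.838 and 0.558 CPM to 0.165, 0.278, 0.218 and 0.331 CPM (-2.11 ± 0.43, edgeR adjusted p = 0.000153, control -1.19). GATA6 rose by 0.37 ± 0.06 and WT1 by 0.23 ± 0.06. INHBA, the activin subunit, fell by 0.59 ± 0.23, which missed the threshold with the vial as a block (adjusted p = 0.0583). With that block 4 members rose and 1 fell. FOXL2 and GATA4 changed by -0.35 and -0.13 and did not pass.

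Prostaglandin genes moved both ways. Of 10 tested, 5 fell and 4 rose (median -0.24, control -0.29). PTGS1, the constitutive cyclooxygenase, went from 12.3, 8.62, 9.67 and 9.27 CPM to 2.97, 2.72, 3.10 and 2.54 CPM, a log2 fold change of -1.81 ± 0.19 (edgeR adjusted p = 7.77e-09, control -0.84). PTGES, the inducible prostaglandin E synthase, fell by 0.97 and PTGFR, the receptor of prostaglandin F, by 1.55. PTGER4, a receptor of prostaglandin E, rose from 1.31, 0.995, 1.62 and 1.51 CPM to 2.37, 3.55, 3.76 and 3.15 CPM (1.23 ± 0.24, control 1.42). The count of risers went down to 1 without vial 1 and without vial 4.

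Inflammatory genes were among the clearest falls. Of 18 cytokine and chemokine genes tested out of 20, 12 fell, 8 of them at least 2-fold, and 2 rose, with a median log2 fold change of -0.81 against -0.37 in the control, -0.72 at 0.01 µM and -1.11 at 1 µM. CXCL2, a neutrophil chemokine (chr4:74097040-74099195), measured 90.4, 95.4, 115 and 100 CPM at 6 weeks and 26.4, 23.8, 28.9 and 23.7 CPM at 12 weeks (log2 fold change -1.96 ± 0.18, edgeR adjusted p = 8.77e-09). IL6, which drives acute inflammation, measured 88.7, 101, 103 and 106 CPM and then 51.4, 45.1, 36.5 and 39.9 CPM (-1.21 ± 0.20, edgeR adjusted p = 2.78e-05). CXCL8, another neutrophil chemokine, measured 12.8, 11.8, 17.2 and 13.4 CPM and then 5.67, 5.44, 3.97 and 5.30 CPM (-1.44 ± 0.21). The times were fully apart in these 3 genes. In the control CXCL2 fell by 0.73, while IL6 and CXCL8 changed by -0.09 and -0.43 and did not pass (adjusted p = 0.748 and 0.075). The differences between the 2 changes in IL6 and CXCL8 missed the threshold as well (adjusted p = 0.0755 and 0.106). IL1B fell by 2.00 ± 0.31, from between 2.87 and 4.36 CPM to between 0.716 and 1.31 CPM, with a control change of -0.72, and CXCL1, CXCL3 and CXCL5, all under 1 CPM, fell by 1.85, 1.78 and 1.63. The subunits NFKB1 and NFKB2 of the factor NF-κB, which drives many of these genes, were the 2 that rose, by 0.33 and 0.18.

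Searching the 250 bases before the RefSeq transcription start (GRCh38.p14) for the NF-κB letters GGG and TTTCC, or GGGA and TTCC, with any 2 bases between, on both strands (the 2 spellings can overlap) found a match in 9 of the 15 tested members with a promoter entry and in 2.6% of 27305 promoters of the same length. The list has 18 tested members, 3 of them without an entry, and NFKB1, which rose, is among the 9. Because NF-κB drives many genes of this list, a share above that of all promoters follows from how the list was chosen. It does not bear on the change with time. The 2 chemokine promoters below are shown because their genes fell together and carry the match at nearly the same distance, with matched bases in capitals and the last base lying next to the start.
CXCL2 (chr4:74099196-74099445, minus strand): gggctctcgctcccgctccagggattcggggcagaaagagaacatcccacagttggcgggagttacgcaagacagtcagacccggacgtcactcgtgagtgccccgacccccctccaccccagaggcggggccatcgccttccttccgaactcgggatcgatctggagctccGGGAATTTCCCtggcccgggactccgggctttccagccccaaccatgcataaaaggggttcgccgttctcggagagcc
CXCL1 (chr4:73869143-73869392, plus strand): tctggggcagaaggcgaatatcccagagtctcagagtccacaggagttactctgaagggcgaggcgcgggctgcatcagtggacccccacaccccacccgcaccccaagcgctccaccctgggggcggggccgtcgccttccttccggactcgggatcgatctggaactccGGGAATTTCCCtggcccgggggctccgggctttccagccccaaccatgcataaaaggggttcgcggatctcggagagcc
In both promoters 2 overlapping matches form a single block that begins at position -78 in CXCL2 and -79 in CXCL1, counted back from the start. A match of letters is no evidence of binding.

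Interferon-stimulated genes, which cells switch on against viruses, fell almost as a block. Of 21 tested out of 24, 19 fell and 0 rose, with a median log2 fold change of -0.67 against -0.38 in the control, where 15 fell and 0 rose. IFI6, a mitochondrial survival protein, measured 29.1, 25.5, 26.2 and 22.0 CPM at 6 weeks and 14.8, 15.0, 16.2 and 12.2 CPM at 12 weeks (-0.82 ± 0.08, edgeR adjusted p = 1.09e-09). IFIT3, which restrains viral RNA, measured 19.1, 14.4, 14.9 and 14.1 CPM and then 8.81, 7.94, 7.68 and 9.44 CPM (-0.88 ± 0.11). ISG15, a ubiquitin-like modifier, measured 16.7, 18.1, 18.5 and 13.1 CPM and then 11.9, 9.61, 9.96 and 9.50 CPM (-0.70 ± 0.11). All 3 were lower in every 12-week library, and the control fell by 0.38, 0.54 and 0.62 in turn. OAS1, IFI44 and MX2 changed most (-2.12, -1.84 and -1.65) but lay under 2 CPM. IRF7, a regulator upstream, changed by -0.02 and did not pass. The difference from the control's change did not pass for any member of the group.

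The interferon-stimulated response element, the site of the factor complex that these genes share, was searched by its core, GAAA and GAAA with any 2 bases between, on both strands of the same 250 bases. It was found in 9 of the 16 tested members with a promoter entry and in 3.07% of the 27305 promoters. The list was chosen as genes that share this element, so the higher share follows from that choice and does not bear on the fall. ISG15 and IFI6 are shown because both genes fell and hold repeated copies.
ISG15 (chr1:1013247-1013496, plus strand): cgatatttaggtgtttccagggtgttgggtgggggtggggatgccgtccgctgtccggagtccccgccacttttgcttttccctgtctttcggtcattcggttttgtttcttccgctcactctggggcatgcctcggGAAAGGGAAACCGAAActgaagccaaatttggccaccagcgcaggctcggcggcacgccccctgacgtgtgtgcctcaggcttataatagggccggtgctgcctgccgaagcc
IFI6 (chr1:27672193-27672442, minus strand): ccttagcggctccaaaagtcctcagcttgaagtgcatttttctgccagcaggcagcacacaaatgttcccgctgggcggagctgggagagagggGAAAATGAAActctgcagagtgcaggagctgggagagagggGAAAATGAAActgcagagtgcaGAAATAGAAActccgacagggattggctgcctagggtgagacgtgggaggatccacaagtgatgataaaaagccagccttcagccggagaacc
ISG15 holds 2 matches that overlap, and IFI6 holds 3 separate ones that begin between positions -156 and -93. A gene without a match may still carry the element outside these letters or this window.

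Matrix and adhesion genes fell in larger numbers than they rose. Among collagens and matrix glycoproteins, 16 of 29 tested fell and 3 rose (median -0.30, control -0.38). Among integrins and laminins 14 of 24 fell and 2 rose (median -0.29, control -0.26), and among matrix proteases and their inhibitors 8 of 17 fell and 2 rose (median -0.32, control -0.06). FN1, the fibronectin gene, had 2283, 2017, 2271 and 2176 CPM at 6 weeks and 1088, 1187, 1232 and 1049 CPM at 12 weeks, a log2 fold change of -0.94 ± 0.08 (edgeR adjusted p = 2.84e-10, control -1.23). COL13A1, a transmembrane collagen of adhesion sites (chr10:69801906-69959144), had 6.52, 7.46, 7.32 and 5.25 CPM and then 1.27, 1.17, 1.14 and 1.27 CPM (-2.45 ± 0.16, edgeR adjusted p = 1.92e-13, control -1.45). LAMA4, a basement membrane laminin chain, went from between 45.1 and 53.1 CPM to between 12.7 and 18.2 CPM (-1.66 ± 0.21, control -1.13). The collagen-binding integrin ITGA11 fell by 2.82, the cadherin CDH11 by 1.57 and COL8A1 by 1.53. The chains of 1 fibril did not move alike. Of collagen VI, COL6A1 and COL6A2 rose by 0.69 and 0.78 while COL6A3 fell by 1.29. Of collagen I, COL1A2 fell from 0.383, 0.553, 0.447 and 0.782 CPM to 0, 0.167, 0.0544 and 0 CPM (-3.14 ± 0.58, edgeR adjusted p = 4.54e-05), whereas COL1A1, between 2137 and 2388 CPM at 6 weeks, changed by -0.15 and did not pass. VCAN, the proteoglycan versican, fell by 1.63 ± 0.36 and TIMP3, a matrix-bound protease inhibitor, by 0.67 ± 0.20.

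Targets of TGF-β and YAP, the pathways that link matrix tension to transcription, moved unevenly. Of 21 tested, 9 fell, 1 rose and 11 did not pass (median -0.10, control -0.28). TGFBI, a TGF-β-induced matrix protein, measured 390, 358, 386 and 323 CPM at 6 weeks and 148, 147, 151 and 162 CPM at 12 weeks (-1.26 ± 0.09, edgeR adjusted p = 1.08e-11, control -1.24). ANKRD1, a YAP target, went from between 64.2 and 77.8 CPM to between 20.2 and 37.6 CPM (-1.43 ± 0.21, control -1.47). Of other members of the list, CCN2 fell by 0.23, and CCN1 and AMOTL2 changed by -0.05 and 0.12 and did not pass. The riser was AXL, a receptor kinase, by 0.45 ± 0.10. In the same direction as the matrix genes, the EMT factor SNAI1 fell by 0.95 and the keratin KRT7 by 0.44, whereas KRT17, a stress keratin, rose from 247, 345, 323 and 336 CPM to 661, 514, 467 and 530 CPM (0.80 ± 0.11, adjusted p = 0.0594 when the 8 libraries alone were fitted with the vial as a block). In all, 7 of 22 keratins, cadherins and EMT factors fell and 2 rose (median -0.04, control -0.08).

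Growth factor genes lost several members. Of 24 tested out of 33, 10 fell and 3 rose (median -0.12, control -0.20). IGFBP5, which binds insulin-like growth factors in the matrix (chr2:216672105-216695549), fell from 31.6, 35.5, 31.5 and 21.6 CPM to 2.2, 3.05, 2.89 and 1.88 CPM (-3.58 ± 0.27, edgeR adjusted p = 3.4e-10, control -2.89). FGF5, a fibroblast growth factor, fell from 7.07, 6.08, 7.99 and 6.92 CPM to 1.43, 1.11, 0.926 and 1.44 CPM (-2.51 ± 0.26, control -2.32). IGFBP3, the main carrier of these growth factors in serum, went the other way, from 7.45, 7.79, 7.54 and 7.99 CPM to 17.6, 15.2, 15.1 and 17.3 CPM (1.09 ± 0.14, control 0.72). Of the 6 insulin-like growth factor binding proteins in the list, IGFBP2, IGFBP4, IGFBP5 and IGFBP7 fell, IGFBP3 rose and IGFBP6 changed by 0.07 and did not pass. Of 19 WNT pathway genes, 5 rose and 5 fell (median -0.10, control -0.25): the ligand WNT2B fell by 1.72 ± 0.13 the ligand WNT7B rose by 1.24 ± 0.23, and SFRP1, a secreted antagonist that the study names, fell by 0.97 ± 0.31 at under 1 CPM. Of 20 genes of protease-activated receptors, RGS proteins and phosphodiesterases, 9 fell and 3 rose (median -0.47, control -0.20). The receptor subunit F2RL2 fell from 9.75, 9.34, 9.33 and 6.81 CPM to 1.21, 1.61, 2.01 and 1.27 CPM (-2.52 ± 0.27, control -2.62), and RGS4, which shortens G-protein signals, fell by 2.25. F2RL3, the thrombin receptor PAR4, changed by -0.66 and lost its call under 9 of 24 alternative settings.

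The aryl hydrocarbon receptor, a sensor of planar aromatic chemicals, had 11 pathway genes tested, of which 6 fell and 0 rose (median -0.11, control -0.07). CYP1B1, a target that hydroxylates estradiol, measured 368, 378, 390 and 406 CPM at 6 weeks and 286, 285, 279 and 292 CPM at 12 weeks (-0.43 ± 0.10, edgeR adjusted p = 0.000819). NQO1, shared with the NRF2 pathway, measured 478, 484, 487 and 448 CPM and then 341, 322, 322 and 366 CPM (-0.49 ± 0.06). CYP1A1, the classical target, was under 1 CPM in every library, changed by -1.46 ± 0.52, and lost its call under 7 of 21 alternative settings. The receptor gene AHR itself changed by 0.01, and TIPARP, its feedback repressor, by 0.11, and neither passed. In the control NQO1 fell by 0.53 and TIPARP rose by 0.43 (edgeR adjusted p = 0.000834). CYP1B1 and CYP1A1 changed there by -0.10 and -0.02 and did not pass. The difference from the control's change did not pass for any gene of this list. Leaving out vial 1, 2 or 4 brought the 6 lower members down to 3, as did the filter of at least 10 counts in every library.

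Lipid synthesis genes were lower at 12 weeks. Of 28 genes of cholesterol and fatty acid synthesis, 20 fell and 1 rose, with a median log2 fold change of -0.25 where the control had 0.03, 4 members higher and 4 lower. At 0.01 and 1 µM the medians were -0.18 and -0.07. MSMO1, a sterol demethylase, fell from 157, 160, 161 and 169 CPM to 114, 108, 108 and 96.6 CPM (-0.60 ± 0.11, edgeR adjusted p = 6.31e-05), and IDI1, an isomerase of the mevalonate pathway, from between 154 and 167 CPM to between 97.6 and 118 CPM (-0.60 ± 0.12). DHCR7, which makes cholesterol, fell by 0.50 and SC5D by 0.57, and both also fell in the control, by 0.27 and 0.48. In the control MSMO1 and IDI1 changed by -0.04 and -0.06 and did not pass, and the differences between the 2 changes had adjusted p of 0.0991 and 0.14. Of 18 genes of fatty acid oxidation and PPAR targets 9 fell and 1 rose (median -0.19, control -0.16), among them ANGPTL4, an inhibitor of lipoprotein lipase, which fell by 2.28 ± 0.32, and PLIN2, which coats lipid droplets and fell by 0.63 ± 0.08. FABP5, a fatty acid carrier, rose by 0.38.

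Metallothioneins, small cysteine-rich proteins that bind zinc and copper, rose together. Of the 7 metallothionein genes tested, 6 rose. MT1F measured 3.01, 3.48, 3.74 and 2.35 CPM at 6 weeks and 10.2, 9, 10.7 and 9.61 CPM at 12 weeks (1.65 ± 0.19, edgeR adjusted p = 5.74e-08). MT1X measured 12.0, 12.7, 13.1 and 11.6 CPM and then 21.2, 23.3, 25.2 and 21.4 CPM (0.89 ± 0.11). MT2A, the most abundant, measured 159, 163, 155 and 153 CPM and then 209, 206, 216 and 189 CPM (0.38 ± 0.09). The times did not overlap in any of the 3. MT1G rose by 2.02 ± 0.39 from under 0.4 CPM, MT1M by 1.38 ± 0.26 and MT1E by 0.72 ± 0.11, while MT1A, at about 0.5 CPM, changed by -0.51 and did not pass. These genes are near-identical neighbours on chromosome 16, so reads may have been split between them. The control flasks showed rises of 1.23 in MT1F, 1.07 in MT1X and 0.60 in MT2A. Among the NRF2 targets of the same list, ABCC3, a transporter of conjugated toxicants, fell from 73.6, 73.3, 72.7 and 62.7 CPM to 24.5, 18.4, 22.7 and 18 CPM (-1.75 ± 0.10), and SRXN1, HMOX1, GCLM and GCLC fell by 0.22 to 0.41. The list as a whole had 8 members higher and 9 lower of 22 (median -0.14, control -0.12).

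Metallothionein promoters carry metal response elements, which the zinc sensor MTF1 binds. The core letters TGCACNC or TGCGCNC were searched on both strands of the 250 bases before the start. They occur in 24.7% of the 27305 promoters, and 0.366% hold at least 4. MT2A held 7 and MT1X held 4, and these 2 promoters are shown for that density. Such elements are a known trait of these promoters, so the density does not bear on the rise.
MT2A (chr16:56608334-56608583, plus strand): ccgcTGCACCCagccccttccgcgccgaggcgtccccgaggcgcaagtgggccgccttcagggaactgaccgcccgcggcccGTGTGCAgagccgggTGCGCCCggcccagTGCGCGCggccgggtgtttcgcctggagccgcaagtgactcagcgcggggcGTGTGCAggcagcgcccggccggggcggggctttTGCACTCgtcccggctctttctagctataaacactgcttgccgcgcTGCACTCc
MT1X (chr16:56682220-56682469, plus strand): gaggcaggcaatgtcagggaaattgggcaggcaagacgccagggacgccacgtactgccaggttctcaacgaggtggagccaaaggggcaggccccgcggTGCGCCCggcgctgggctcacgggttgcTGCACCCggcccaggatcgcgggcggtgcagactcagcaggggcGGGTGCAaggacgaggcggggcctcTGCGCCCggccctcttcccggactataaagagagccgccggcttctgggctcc
Of the other metallothionein genes tested, MT1A, MT1E, MT1F, MT1G and MT1M had no entry.

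Genes of growth and amino acid supply rose by small amounts. Of 35 cytosolic ribosomal protein genes, 31 rose and 0 fell, with a median log2 fold change of 0.29 against 0.33 in the control. RPSA measured 821, 787, 813 and 803 CPM at 6 weeks and 1087, 1125, 1098 and 1106 CPM at 12 weeks (0.45 ± 0.06, edgeR adjusted p = 1.64e-07). Ribosomal protein genes together took 4.33 to 4.56% of the counts at 6 weeks and 5.08 to 5.4% at 12 weeks (exact permutation test, two-sided, p = 0.0286). Of 38 cell cycle and DNA replication genes, 26 rose and 3 fell (median 0.19, control 0.14). CDC20, which triggers anaphase, measured 292, 286, 294 and 307 CPM and then 403, 387, 382 and 413 CPM (0.43 ± 0.07), and the proliferation marker MKI67 rose by 0.21 ± 0.06. The 3 that fell were CCNE1, CCNE2 and RRM2, by 0.32 to 0.39, and CCNE1 kept its call under 18 of 24 alternative settings. Other genes of DNA replication rose, such as MCM6 and GINS2 by 0.36 and 0.37, or did not pass, such as MCM3 and MCM4. Among G1 cyclins, CDK inhibitors and p53 targets, 7 of 23 rose and 7 fell (median 0.01, control 0.09), with CDKN1C (p57) up by 1.16 ± 0.26, CDKN1A (p21) down by 0.40 ± 0.10 and CCND3 down by 0.63 ± 0.07.

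In the integrated stress response, in which the factor ATF4 raises amino acid supply, and the unfolded protein response, 13 of 26 genes rose and 1 fell (median 0.17, control 0.12). ASNS, asparagine synthetase, measured 29.8, 29.9, 30.8 and 27.6 CPM at 6 weeks and 57.0, 56.5, 56.3 and 55.2 CPM at 12 weeks (0.93 ± 0.06, edgeR adjusted p = 1.97e-14). SLC7A5, the transporter of large neutral amino acids, measured 154, 164, 167 and 168 CPM and then 272, 254, 236 and 268 CPM (0.66 ± 0.10). PSAT1, of serine synthesis, rose by 0.61 ± 0.05. Not all risers serve amino acid supply: ATF4 itself rose by 0.34, and PDIA4 and SDF2L1 of the unfolded protein response by 0.21 and 0.18. In that response the chaperone HSPA5 changed by 0.03 and did not pass, and DNAJB9 fell by 0.33. ASNS and PSAT1 rose by 0.94 and 0.53 in the control, and SLC7A5 changed there by 0.11 (adjusted p for the difference 0.1). Heat shock chaperones moved both ways, 4 higher and 4 lower of 17 (median 0.02, control 0.06). Of 28 glycolytic and hypoxia-inducible genes 13 fell and 4 rose (median -0.14, control -0.09), ALDOC by the largest amount (-1.16 ± 0.23). Of 13 subunits encoded by the mitochondrial genome, 2 were lower, MT-ND3 and MT-COX3, and 0 higher (median -0.12, control 0.06).

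**Figure D4:**
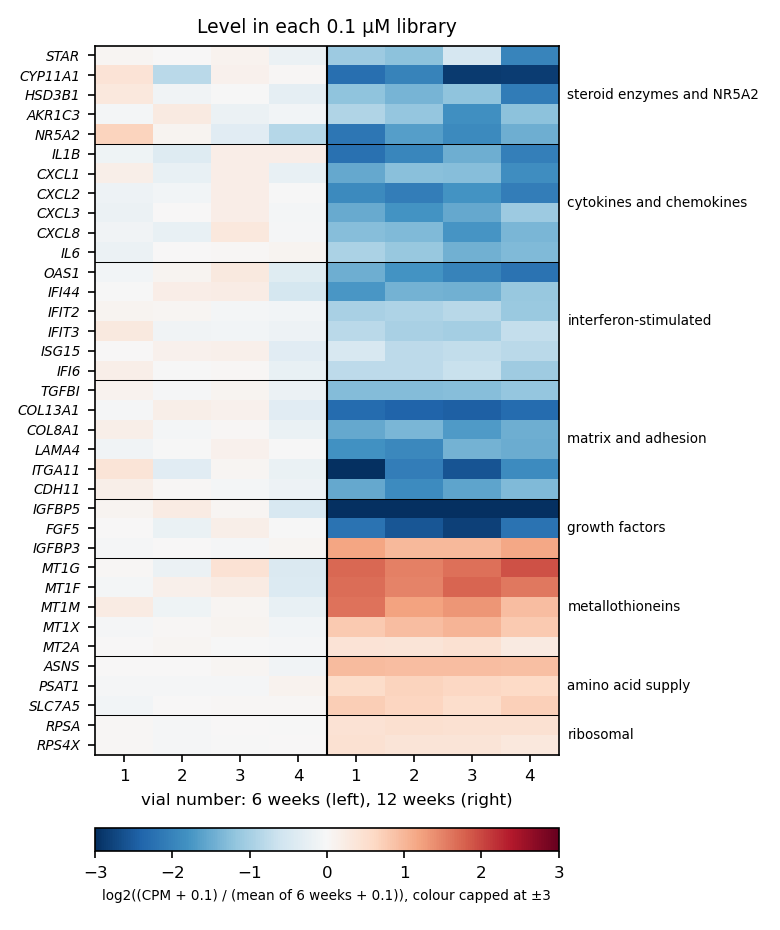
Level of 36 genes in each 0.1 µM library relative to the mean of the 6-week libraries, as log2 of CPM + 0.1 in colour, with vials 1 to 4 at 6 weeks left of the line and at 12 weeks right of it, and gene groups in rows. The values run from -3.93 to 1.91, the metallothionein, amino acid supply and ribosomal rows and IGFBP3 are red at 12 weeks, and the other rows are blue in all 4 vials. The genes were picked from list members that changed, so the uniform rows follow from that choice. Members that went the other way, such as NFKB1 and COL6A1, are not drawn.

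The change with time was next compared with that of the control flasks. The difference between the 2 changes (an interaction in edgeR) had an adjusted p at or under 0.05 in 27 genes, 0.208% of those tested, 6 of them more positive and 21 more negative at 0.1 µM, and an unadjusted p under 0.05 in 1879 genes. With the vial as a block 41 genes passed and by DESeq2 136, and without vial 4 only 1 passed, ZFP36L1. Without control vial 3 of 12 weeks, which held 1731 counts of hepatocyte markers against 418 to 531 in the other controls of 12 weeks, 13 genes passed. That library (-19.3) and control vial 4 of 12 weeks (-16.7) lay lowest on the second component. Vials 3 and 4 of 12 weeks at 0.01 µM came next (-11.8 and -9.08). Immediate early genes, which cells transcribe within minutes of a stimulus, made up 5 of the 27: JUN, ATF3, DUSP1, MYC and KLF6. In the list of immediate early genes, which also has 27 members, 13 rose and 0 fell over time in the control, while at 0.1 µM 2 rose and 4 fell, with medians of 0.30 and 0.03.

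JUN, a subunit of the factor AP-1 (chr1:58780791-58784047), measured 133, 124, 128 and 123 CPM at 6 weeks and 119, 106, 121 and 108 CPM at 12 weeks at 0.1 µM. In the control it measured 121, 103, 115 and 106 CPM and then 186, 186, 162 and 147 CPM. The change was -0.16 ± 0.09 at 0.1 µM and 0.62 in the control, a difference of -0.78 ± 0.12 (edgeR adjusted p = 0.00244). ATF3, a stress-induced partner of JUN, was at 207, 199, 206 and 218 CPM and then 257, 204, 210 and 195 CPM at 0.1 µM, and rose from between 197 and 237 CPM to between 329 and 412 CPM in the control (difference -0.72 ± 0.11, edgeR adjusted p = 0.0025). Every 12-week control lay above every 6-week control in both genes, whereas at 0.1 µM the times overlapped in ATF3 and the 12-week libraries were slightly the lower ones in JUN. ZFP36L1, which marks AU-rich mRNAs for decay (chr14:68787655-68796243), fell from 197, 210, 216 and 230 CPM to 162, 162, 156 and 146 CPM and moved in the control from between 170 and 179 CPM to between 180 and 200 CPM (difference -0.58 ± 0.08, edgeR adjusted p = 0.000114). Its call held under all 21 alternative settings that test the difference. CITED2, a transcriptional coregulator, JUN and ATF3 held under 20 of 21, and DUSP1, a phosphatase of MAP kinases, and MYC under 19. Without vial 4, JUN and CITED2 had an adjusted p of 0.161, ATF3 and DUSP1 of 0.336 and MYC of 0.17. ZFP36L1 and CITED2 were chosen after their values were seen. IER3, which protects cells from death signals, fell the most of the immediate early genes, from 200, 214, 233 and 225 CPM to 126, 114, 107 and 115 CPM (-0.92 ± 0.12), and its difference from the control, -0.78, missed the threshold (adjusted p = 0.0556).

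Within the 0.1 µM libraries, 12-week vial 1 had the highest level of several immediate early genes. NR4A3, an orphan nuclear receptor that the study names, measured 13.5, 14.8, 16 and 22.8 CPM at 6 weeks and 68.1, 33.3, 27.7 and 26.1 CPM at 12 weeks (1.21 ± 0.26, edgeR adjusted p = 0.00074). Fitted on the 8 libraries alone, NR4A3 missed the threshold (edgeR adjusted p = 0.053, and 0.139 with the vial as a block). NR4A1 had 312 CPM in that library and 171 to 195 CPM in the other 12-week libraries, and EGR1 had 586 CPM against 384 to 479. Without that library 8 of the 27 immediate early genes fell, in place of 4, and 1 rose.

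The remaining genes that differed from the control included regulators, secreted proteins and 1 liver transcript, and most of them depended on the fit. NR6A1, an orphan receptor of germ cells, rose from 0.274, 0.608, 0.838 and 0.447 CPM to 1.21, 1.00, 1.09 and 1.21 CPM while the control changed by -0.88 (difference 1.93 ± 0.42, edgeR adjusted p = 0.0406, called in 7 of 19 alternative settings). CXCL2 had the difference -1.23 ± 0.25 (adjusted p = 0.0395), COL13A1 -1.0 ± 0.23 (0.0445) and BTG2, an antiproliferative gene, -0.86 ± 0.18 (0.0395). ACTBL2, an actin-like gene, fell from between 0.387 and 0.603 CPM to between 0.0555 and 0.220 CPM where the control changed by 0.87 (difference -2.37 ± 0.53, adjusted p = 0.0445). ACAP3, DDX51, COL12A1 and TUFT1, the last chosen after its values were seen, had differences of 0.31 to 0.49 in the positive direction. Of the other genes the study names, KLHL3, an adaptor of a ubiquitin ligase, fell by 0.84 ± 0.17 at 0.1 µM and by 0.91 in the control, while TTPA, the tocopherol transfer protein, changed by -0.31 and did not pass. The change at 0.1 µM differed from that at 0.01 µM in 1 gene (0.0077% of those tested, with 1178 genes at an unadjusted p under 0.05), VMP1, which takes part in autophagy. VMP1, also chosen after its values were seen, fell from 85.7, 88.9, 87.2 and 80.8 CPM to 64.8, 62.3, 67.2 and 64.4 CPM and changed by 0.00 at 0.01 µM (difference -0.40 ± 0.07, edgeR adjusted p = 0.0268). From the change at 1 µM 0 genes differed by edgeR and 4 by DESeq2, with 946 genes at an unadjusted edgeR p under 0.05.

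For ALB, the albumin gene of liver, the difference of -7.91 ± 1.56 (edgeR adjusted p = 0.0386) came with a rise in the control. At 0.1 µM it measured 1.92, 2.27, 2.29 and 2.79 CPM at 6 weeks and 1.76, 2.00, 2.29 and 3.37 CPM at 12 weeks, a change of 0.02 ± 0.58 (edgeR adjusted p = 0.979). In the control it had 0, 0, 0 and 0.0552 CPM at 6 weeks, a single count, and 1.39, 2.10, 14.7 and 1.86 CPM at 12 weeks, a ratio of 368 with an exact counting interval of 65.6 to 14560. AFP, AHSG and APOB, also liver transcripts, had counts in every 0.1 µM library at both times and none in the control at 6 weeks. The study names ALB, AFP, AHSG and APOB among the DEGs that 0.1 and 1 µM shared at 6 weeks. Over the 7 hepatocyte markers tested, the median log2 fold change with time was 7.93 in the control and 6.8 at 0.01 µM. It was -0.19 at 0.1 µM and 0.19 at 1 µM. The hepatocyte markers summed to 516 to 620 counts at 6 weeks and 435 to 504 at 12 weeks at 0.1 µM (exact permutation test, two-sided, p = 0.0286). Their part in other results was not tested. Of markers of other cell types, the endothelial list summed to 2.85 to 3.47 TPM and then 1.30 to 1.73 TPM, with ERG at 0 in all 8 libraries, and the leukocyte list to 35.5 to 40.0 TPM and then 19.6 to 24.1 TPM, carried by CD68 and CD14, with CD3E at 0. The theca and stroma list, mostly COL3A1, summed to 683 to 753 TPM and then 515 to 657 TPM, without overlap, and the epithelial list to 9.62 to 10.5 TPM and then 6.93 to 9.27 TPM, with KRT5 and ESRP1 at 0. Their part in the fall of the matrix genes was not tested. In bulk RNA, fewer cells of a kind and less RNA per cell cannot be told apart.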

How the data were processed

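RNA of 32 HGrC1 libraries, 4 for each of 8 combinations of dose and time, was sequenced by the study as poly(A)-selected stranded libraries. The authors deposited RSEM expected counts and TPM values per gene, made by them from the reads. The submitters' processing notes name HISAT2 2.0.4, Bowtie2 2.2.5 and RSEM 1.2.8, and the build GRCh38. The expected counts were rounded to whole numbers (7.675% were not whole), and TPM served only for levels between genes. RSEM shares reads among similar genes by estimation, so paralogs can exchange counts. Of 47137 entries, 18583 carried values.

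All libraries were fitted together in edgeR 4.0.16 (R 4.3.3, limma 3.58.1, robust quasi-likelihood test, TMM scaling, default low-count filter) with a mean per group, and the contrast of 12 against 6 weeks at 0.1 µM was tested over 12988 genes with Benjamini-Hochberg adjustment, as was its difference from the same contrast at each other dose. Each dose has its own libraries. DESeq2 1.42.0 was an alternative. Exact tests and figures used Python 3.11.15, scipy 1.17.1, numpy 2.4.6, pandas 2.3.3 and matplotlib 3.10.9. Totals of 17907056 to 18207214 counts limit genes near 1 count per library to wide counting errors.

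The members and gene lists were chosen with earlier results of these data known. Named were, per direction, the 10 largest changes among DEGs with a mean of at least 10 counts in the higher group, the same direction in 4 vials and no overlap, the 5 largest differences from the control, up to 4 passing members per list and direction or those a list turned on, and genes the study names. Further list members were named after their values were seen. Genes of multicopy families and readthrough genes were left out, and some genes are not reported here. Replicate numbers mark the thawed vial per the labels. At 0.1 µM, deviations of same-numbered libraries at 6 and 12 weeks correlated by 0.0131 to 0.0907 (4 pairs) against -0.173 to 0.118 for other pairs (12). The vial was kept as an alternative block. That check does not cover the doses of the same time, which share vials. At 6 weeks vial 1 lay lowest and vial 4 highest on the first component in every dose (-23.8 and -17.3 at 0.1 µM, -27.1 and -17.2 in the control). The main fit of the difference from the control leaves that pairing out. Replicate pairs differed by more than counting noise (chi-square per degree of freedom 2.33 to 7.02), and p-values measure the spread between vials of 1 line. Tested on simulated data for this comparison (12917 genes), the fit recovered 94 of 100 genes changed by 1 on the log2 scale and 98 of 99 changed by 2, with 6 false calls. The simulation changed these genes in the 12-week 0.1 µM group alone, with a common mean elsewhere and no vial effect. It does not cover changes under 2-fold, which made up most of the calls.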

Additional observations from a re-analysis of the deposited data

Results flagged for a closer look

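Single libraries stood apart from the 3 others of their time in 31 of 464 groups of 4 examined by Dixon's ratio, where chance flags about 1 in 20. Vial 1 of 12 weeks was the highest in CHMP1B at 78.5 CPM against 66.0 to 67.7 CPM, NR4A2 at 116 CPM against 69.4 to 74.4 CPM and TIPARP at 127 CPM against 91.0 to 95.9 CPM. The same library was the highest in VIM at 2679 CPM against 2406 to 2445 CPM. Vial 2 of 12 weeks was the lowest in TP53I3 at 14.3 CPM against 16.5 to 16.8 CPM. Vial 3 of 12 weeks was the highest in ACKR3 at 0.0544 CPM against 0 CPM, SULT1E1 at 0.0544 CPM against 0 CPM and WNT2B at 11.6 CPM against 9.77 to 10.1 CPM. Vial 4 of 12 weeks was the highest in AHSG at 1.82 CPM against 0.98 to 1.11 CPM, CREB3L3 at 0.11 CPM against 0.0544 to 0.0555 CPM and ENO2 at 58.2 CPM against 51.9 to 52.8 CPM. The same library was the highest in FABP5 at 44.6 CPM against 38.3 to 39.3 CPM. Vial 4 of 12 weeks was the lowest in CD14 at 3.37 CPM against 4.03 to 4.11 CPM, OTUD1 at 35.9 CPM against 47.2 to 48.5 CPM and PDGFRA at 0.0552 CPM against 0.109 to 0.111 CPM. The same library was the lowest in PTGFR at 0.276 CPM against 0.551 to 0.599 CPM. Vial 1 of 6 weeks was the highest in ACTBL2 at 0.603 CPM against 0.387 to 0.391 CPM, ADGRL3 at 0.329 CPM against 0.111 to 0.112 CPM and IFIT3 at 19.1 CPM against 14.1 to 14.9 CPM. Vial 1 of 6 weeks was the lowest in KRT18 at 1803 CPM against 1900 to 1917 CPM. Vial 3 of 6 weeks was the highest in PHLDA1 at 48.6 CPM against 44.2 to 44.8 CPM. Vial 3 of 6 weeks was the lowest in ADM at 13.6 CPM against 15.3 to 15.4 CPM and CCNE2 at 20.7 CPM against 22.2 to 22.3 CPM. Vial 4 of 6 weeks was the highest in CDKN1C at 1.4 CPM against 1.15 to 1.17 CPM, MMP16 at 17.0 CPM against 14.9 to 15.0 CPM and NFKB2 at 97.7 CPM against 95.3 to 95.7 CPM. The same library was the highest in PSAT1 at 64.8 CPM against 58.6 to 59.1 CPM. Vial 4 of 6 weeks was the lowest in ABCC3 at 62.7 CPM against 72.7 to 73.6 CPM, ANKRD1 at 64.2 CPM against 77.5 to 77.8 CPM and F2RL2 at 6.81 CPM against 9.33 to 9.75 CPM. The same library was the lowest in ITGB3 at 31.3 CPM against 37.9 to 38.8 CPM.

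The change with time at 0.1 µM differed from that of the control, by the edgeR test of the difference itself, in 27 genes. Values are the log2 change at 0.1 µM minus that of the control. More negative at 0.1 µM were ALB (-7.91, adjusted p = 0.0386), ACTBL2 (-2.37, adjusted p = 0.0445), CXCL2 (-1.23, adjusted p = 0.0395), COL13A1 (-1.0, adjusted p = 0.0445) and BTG2 (-0.86, adjusted p = 0.0395). Next in that direction came JUN (-0.78, adjusted p = 0.00244), PHLDA1 (-0.72, adjusted p = 0.0428), ATF3 (-0.72, adjusted p = 0.0025), CCN3 (-0.71, adjusted p = 0.0271), DUSP1 (-0.71, adjusted p = 0.00304) and ZFP36L1 (-0.58, adjusted p = 0.000114). Then followed OTUD1 (-0.56, adjusted p = 0.0445), PSMB9 (-0.53, adjusted p = 0.0462), CHMP1B (-0.52, adjusted p = 0.0139), WBP1 (-0.46, adjusted p = 0.0219), YPEL5 (-0.46, adjusted p = 0.0271) and CITED2 (-0.46, adjusted p = 0.00174). The smallest negative differences were those of MYC (-0.45, adjusted p = 0.00516), KLF6 (-0.31, adjusted p = 0.0271) and ADAMTS1 (-0.28, adjusted p = 0.0194). More positive at 0.1 µM were TUFT1 (0.31, adjusted p = 0.0445), COL12A1 (0.33, adjusted p = 0.0445), DDX51 (0.33, adjusted p = 0.0271), ACAP3 (0.49, adjusted p = 0.0219) and NR6A1 (1.93, adjusted p = 0.0406). VMP1 differed from the change at 0.01 µM (-0.40, edgeR adjusted p = 0.0268). Without control vial 3 of 12 weeks, the calls of CITED2, DUSP1, ALB, WBP1, JUN, MYC, ATF3, CHMP1B, ZFP36L1 and ADAMTS1 held, and those of the other 17 did not.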

How the results depend on the processing

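Across 24 alternative settings, of 208 named genes called for their change with time, 160 kept the call wherever they were tested, and 0 values reversed. The counts of 2564 higher and 2671 lower genes moved by less than 1.5 times under each. Requiring at least 10 counts in every library left 22 DEGs higher and 239 lower, by construction of the filter, which removes genes near 0 at one time. The 27 genes that differed from the control became 43 in a fit of 16 libraries, 136 by DESeq2, 15 without a low-count filter and 41 with the vial as a block, and ranged from 1 (without vial 4) to 48 (without vial 1) when libraries were left out. The 1 gene that differed from 0.01 µM became 5 by DESeq2 and 0 to 8 with libraries left out, and the 0 from 1 µM became 4 by DESeq2, 2 without the filter and 0 to 1 with libraries left out. The cause was not tested. The vial block in the fit of 32 libraries ended the calls of INHBA, LAMB2 and SREBF1 among named genes. Genes under 1 CPM rest on fewer than 20 counts a library, which limits their fold changes.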

Other observations

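LMNB1, a lamin of the nuclear envelope whose loss is used as a mark of senescence, measured 190, 189, 185 and 187 CPM at 6 weeks and 270, 266, 263 and 238 CPM at 12 weeks at 0.1 µM (log2 fold change 0.47 ± 0.06, edgeR adjusted p = 5.04e-08), and the control changed by 0.46. GDF15, a stress cytokine and p53 target, measured 1.42, 0.884, 1.34 and 1.28 CPM and then 0.826, 0.500, 0.653 and 0.883 CPM (-0.78 ± 0.31, edgeR adjusted p = 0.0396), a call that held under 12 of 23 alternative settings. CREB3L3, a liver and lipid transcription factor, fell from 0.603, 0.387, 0.391 and 0.447 CPM to 0.0551, 0.0555, 0.0544 and 0.110 CPM (-2.62 ± 0.52, control -1.38). PECAM1, an endothelial adhesion molecule, fell from 1.37, 0.774, 0.615 and 0.391 CPM to 0.110, 0.167, 0.0544 and 0 CPM (-3.15 ± 0.48, control -2.65). CDH5, another endothelial marker, changed by 0.50 and did not pass.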
